A study of Mus musculus with 6 samples.

Results

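The Kv1 (Shaker) family of voltage-gated potassium channels was followed across the cell types of the mouse forebrain with single-nucleus RNA-seq (snRNA-seq), in which nuclei are caught in droplets and the RNA molecules of each nucleus are counted. The members are 9 of the 32285 genes of the count matrix and were picked by symbol: the pore-forming alpha subunits Kcna1, Kcna2, Kcna3, Kcna4, Kcna5 and Kcna6, and the cytosolic beta subunits Kcnab1, Kcnab2 and Kcnab3. Forebrain nuclei were taken on postnatal day 16 from 3 WT and 3 Npc1-/- mice that received no treatment. Npc1-/- mice lack the lysosomal cholesterol transporter NPC1 in every cell and model Niemann-Pick disease type C. They carried the Npc1 nih allele as F1 hybrids of BALB/cJ and C57BL6/J parents, and the WT mice were littermates. The libraries are told apart in the joined matrix by a barcode suffix from 1 to 6, and the sources used here do not tie a suffix to a mouse. WT and Npc1-/- were therefore not compared, and the members were described across cell types, with every library shown singly.

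Kv1 channels are built from alpha subunits assembled around a central pore, and different alpha subunits can share a channel. They open at voltages close to the resting potential and set how readily a neuron fires, and the beta subunits bind the cytoplasmic face of the pore, where some of them speed the closing of the channel and help its transport to the membrane. In myelinated axons Kv1.1 and Kv1.2, the products of Kcna1 and Kcna2, lie under the myelin next to the paranodes, held there by Caspr2 (Cntnap2) and TAG-1 (Cntn2), and mutations of human KCNA1 cause episodic ataxia. Oligodendrocyte progenitors also carry delayed-rectifier potassium currents, to which Kv1 subunits contribute.

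The alpha subunit genes sit in clusters. In the GRCm38 annotation Kcna5 (ENSMUSG00000045534, chr6:126532551-126535412, minus strand), Kcna1 (ENSMUSG00000047976, chr6:126640397-126646384, minus strand) and Kcna6 (ENSMUSG00000038077, chr6:126708329-126740674, minus strand) follow each other with gaps of 104984 and 61944 bp and 0 protein-coding genes between them. Kcna3 (ENSMUSG00000047959, chr3:107036169-107038070, plus strand) and Kcna2 (ENSMUSG00000040724, chr3:107101146-107115005, plus strand) lie 63075 bp apart, again with 0 protein-coding genes between, and Kcna4 (ENSMUSG00000042604, chr2:107290639-107298502, plus strand) stands alone. The beta subunit genes are spread over 3 chromosomes: Kcnab1 (ENSMUSG00000027827, chr3:65109384-65378223, plus strand), Kcnab2 (ENSMUSG00000028931, chr4:152390742-152477871, minus strand) and Kcnab3 (ENSMUSG00000018470, chr11:69326258-69333042, plus strand).

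The Kcna6 promoter is shown because the study examined chromatin at it. In RefSeq (GRCm38.p6) the 250 bases before the Kcna6 start are chr6:126740675-126740924 on the minus strand, printed 5′ to 3′ with each CG dinucleotide in capitals.
Kcna6: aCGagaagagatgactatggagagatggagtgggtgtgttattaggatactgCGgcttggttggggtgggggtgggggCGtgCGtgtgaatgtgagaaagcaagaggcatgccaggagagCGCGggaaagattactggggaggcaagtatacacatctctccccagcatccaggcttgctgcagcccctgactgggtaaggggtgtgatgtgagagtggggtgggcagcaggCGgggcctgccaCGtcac

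This window holds 8 CG dinucleotides, against a median of 6.0 over 32851 RefSeq windows of the same length, 57.0% of which hold fewer, and 58.8% of its bases are G or C. Among the other members with a window, the number of CG dinucleotides was 31 at Kcna3, 18 at Kcna2, 14 at Kcna4, 3 at Kcna5, and 6, 2, 1 at the 3 starts of Kcnab1 and 20, 5, 3 at the 3 of Kcnab2. The E-box CAGCTG (its own reverse complement) is in 13% of all windows and, among the members, in that of Kcna2. The counts of snRNA-seq do not measure chromatin, so nothing here bears on the activity of these sequences.

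The alpha subunits hold stretches that are closely alike, which matters for how reads could be assigned. A 60-base stretch of their coding exons is printed 5′ to 3′ on the coding strand, with the 41 bases that all 6 share in capitals. It was chosen as the stretch of Kcna1 most alike in the others, so it is not typical of their coding sequences.
Kcna1: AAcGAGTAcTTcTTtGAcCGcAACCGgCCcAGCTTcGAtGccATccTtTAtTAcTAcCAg
Kcna2: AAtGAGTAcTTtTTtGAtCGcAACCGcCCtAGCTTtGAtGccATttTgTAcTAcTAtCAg
Kcna3: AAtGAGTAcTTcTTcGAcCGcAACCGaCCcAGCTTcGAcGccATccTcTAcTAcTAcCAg
Kcna4: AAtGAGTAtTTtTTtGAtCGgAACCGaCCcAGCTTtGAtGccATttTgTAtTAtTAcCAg
Kcna5: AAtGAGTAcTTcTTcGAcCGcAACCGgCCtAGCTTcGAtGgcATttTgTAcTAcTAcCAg
Kcna6: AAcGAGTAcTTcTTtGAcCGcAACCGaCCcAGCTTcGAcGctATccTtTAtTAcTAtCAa

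The stretch lies at chr6:126643065-126643124 in Kcna1, where it starts at coding base 232, and the Kcna6 copy at chr6:126739622-126739681 has 55 of the 60 bases of Kcna1. The longest exact match between any 2 alpha subunit coding sequences was 91 bases, between Kcna5 (chr6:126533950-126534040) and Kcna6 (chr6:126738852-126738942), both on the minus strand and coding.
Kcna5 and Kcna6: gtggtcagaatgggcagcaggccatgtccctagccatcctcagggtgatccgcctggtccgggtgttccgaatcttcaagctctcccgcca

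This run ends 1399 bases before the end of the Kcna5 transcript and 4016 bases before that of Kcna6, whereas 3' libraries are read mainly near transcript ends and at internal runs of A. All other pairs of alpha subunits shared runs of 17 to 31 bases, and the pairs of beta subunits 14 to 26.

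The matrix held 75878 barcodes with 51343653 to 107583300 unique molecular identifiers (UMIs, 1 per captured transcript) per library and a median of 4469 to 5439 per barcode. After high mitochondrial shares and likely doublets were left out, 68445 nuclei remained, of which 20289 stayed in clusters without a name. The others fell into 28 types named from fixed markers and called X-like, among them 3423 oligodendrocyte progenitor (OPC)-like, 1667 immature and 1927 mature oligodendrocyte-like nuclei. Mature nuclei numbered 547, 656, 135, 138, 377 and 74 in libraries 1 to 6, and OPC-like nuclei 630, 749, 655, 500, 553 and 336. Levels summed over libraries therefore weight the libraries differently from stage to stage. The mix of WT and Npc1-/- nuclei in each type is not known here and may differ between stages. Neuronal RNA was present in every non-neuronal type: the summed level of 9 neuronal genes, among them Rbfox3, Snap25, Syt1 and Slc17a7, was 22.5% of its level in named neurons in mature oligodendrocyte-like, 28.7% in immature, 36.9% in OPC-like, 34.7% in astrocyte-like and 50.9% in microglia-like nuclei. Single genes of the 9 ranged widely around the sum, from 12.3% to 140% in mature and from 18.0% to 195% in OPC-like nuclei. Levels in glia are therefore given beside those of 7 other non-neuronal types pooled (microglia-, macrophage-, endothelial-, pericyte or smooth muscle-, fibroblast-, ependymal- and choroid plexus-like). Libraries also differed in make-up: 710 of 770 nuclei of 1 unnamed cluster came from library 4, and of 621 striatal projection neuron-like nuclei outside the direct- and indirect-pathway types, 16, 3 and 1 came from libraries 4, 5 and 6. Of 75245 barcode sequences, 631 occurred in more than 1 library.

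Levels are given as CPM, a gene's UMIs summed over all nuclei of the type and divided by the summed UMIs of that type on the usual CPM scale, with exact 95% Poisson intervals that cover counting error only and not the spread between mice. A difference between types is the log2 ratio of 2 such levels, and it was called where its exact interval left out 0 and all 6 libraries lay on the same side. Over all kept nuclei Kcnab1 gave 140777 UMIs, Kcnab2 20993, Kcna1 17329, Kcna6 13656, Kcna2 13174, Kcna4 9077 and Kcnab3 1834, while Kcna5 with 458 and Kcna3 with 95 stayed under the minimum of 500 UMIs. These totals depend on gene length and read priming as well as on expression and do not rank the genes. Genes on the opposite strand overlap some members, Kcna6 and Kcnab1 among them. Whether the counting used strand is not known here, so the values of these members may be affected. Counts of members below are over the 7 that passed, and all genes means the 16176 that passed. The map of levels by type shows where each member was high, with some high types shared between members.

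**Figure D1:**
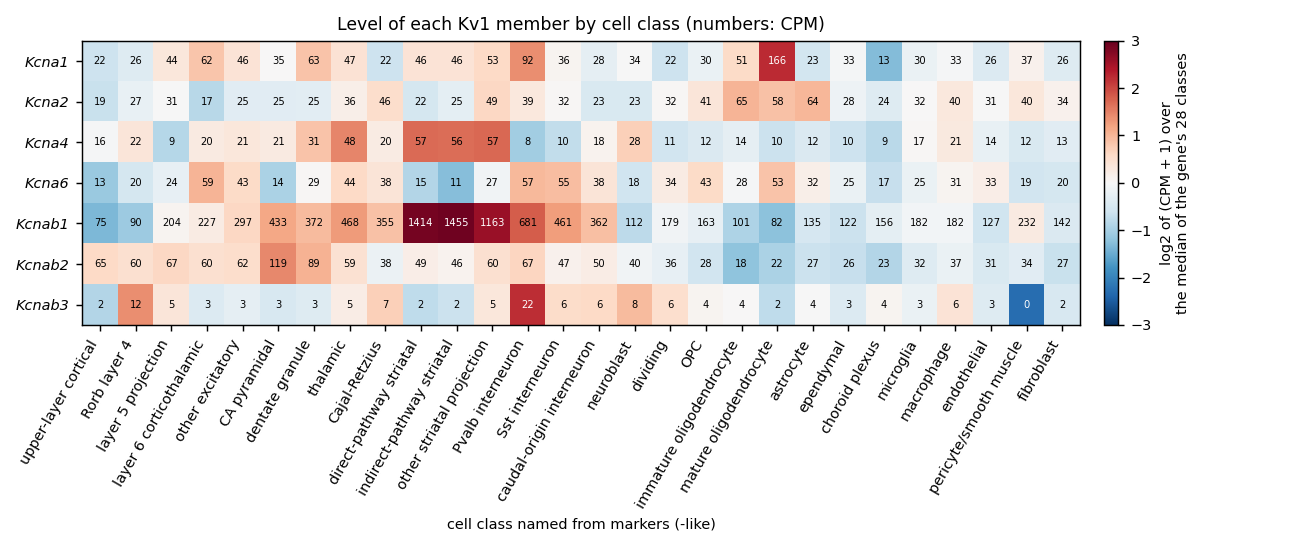
Level of the 7 members with 500 or more UMIs (rows) in the 28 named types (columns). Printed numbers are CPM and colours are log2 of (CPM + 1) over the gene's median type, so rows can be compared by pattern and not by height. Kcna1 peaks in mature oligodendrocyte-like (166 CPM) and Pvalb interneuron-like nuclei (91.8 CPM), Kcnab1 and Kcna4 in striatal types, and Kcnab2 in CA pyramidal-like nuclei (119 CPM).

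Within the oligodendrocyte lineage the pore subunits parted ways: Kcna1 rose from stage to stage, Kcna2 was higher in immature and mature nuclei than in OPC-like ones, and Kcna6 dipped in the immature stage and was higher again in mature nuclei. Kcna1, which encodes Kv1.1, reached 166 CPM (95% interval 158 to 174, 1658 UMIs) in mature oligodendrocyte-like nuclei. The level was 207, 157, 156, 96.3, 157 and 184 CPM in libraries 1 to 6, and it was the highest of the 28 types in 6 of 6 libraries. Immature nuclei held 51.5 CPM (95% interval 46.3 to 57.2, 352 UMIs), with 54.4, 48.7, 48.9, 41.5, 51.5 and 85.2 CPM in libraries 1 to 6. OPC-like nuclei held 29.6 CPM (95% interval 26.6 to 32.9, 350 UMIs), with 29.0, 31.2, 32.6, 30.4, 28.6 and 18.8 CPM in libraries 1 to 6, so that the mature values and the OPC-like values did not overlap. The log2 ratio of Kcna1 was 0.80 (95% interval 0.58 to 1.02) for immature over OPC-like, 1.69 (95% interval 1.52 to 1.86) for mature over immature and 2.49 (95% interval 2.32 to 2.66) for mature over OPC-like, a 5.6-fold difference, with all 6 libraries above 0 in each. The mature over OPC-like value was 1.97 without the doublet filter. The next highest type was Pvalb interneuron-like, fast-spiking cells that are known to rely on Kv1.1, at 91.8 CPM (95% interval 86 to 97.8, 942 UMIs) and 104, 93.5, 96.9, 74.8, 105 and 66.2 CPM in libraries 1 to 6. Mature oligodendrocyte-like nuclei lay above them in 6 of 6 libraries. Below these, dentate granule-like (62.9 CPM) and layer 6 corticothalamic-like nuclei (62.1 CPM) had overlapping intervals, and choroid plexus-like nuclei were lowest at 13.3 CPM. The 9 neuronal reference genes summed to 2199 CPM in OPC-like and 1343 CPM in mature nuclei, and Kcna1 in mature nuclei was 377% of its level in named neurons. Single reference genes there ranged from 12.3% to 140% of their level in named neurons. The part of neuronal RNA in the Kcna1 values was not tested.

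Kcna2, which encodes Kv1.2, had its 3 highest types among glia: immature oligodendrocyte-like at 65.1 CPM (95% interval 59.2 to 71.4, 445 UMIs), astrocyte-like at 63.7 CPM (95% interval 60.9 to 66.7, 1902 UMIs) and mature oligodendrocyte-like at 58.5 CPM (95% interval 53.8 to 63.4, 584 UMIs). Each of these intervals overlapped the next, and the order of the 3 differed between libraries. By library Kcna2 was 65.1, 73.4, 62.3, 63.7, 63.7 and 47.1 CPM in libraries 1 to 6 in immature and 69.2, 59.6, 47.0, 47.5, 53.6 and 46.7 CPM in libraries 1 to 6 in mature nuclei. In OPC-like nuclei it was 46.5, 46.9, 38.7, 41.5, 26.0 and 38.5 CPM in libraries 1 to 6, below the immature value in every library. The log2 ratio was 0.68 (95% interval 0.49 to 0.87) for immature and 0.52 (95% interval 0.35 to 0.70) for mature over OPC-like, both with 6 of 6 libraries above 0, whereas mature over immature was -0.16 (95% interval -0.34 to 0.026) with 5 of 6 below 0 and was not called. Among neurons Kcna2 was highest in Cajal-Retzius-like nuclei and in the small striatal projection group, on 46 and 112 UMIs, then in Pvalb interneuron-like nuclei at 39.4 CPM, and it was lowest in layer 6 corticothalamic-like nuclei at 17.1 CPM (95% interval 15.5 to 18.9, 405 UMIs).

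Kcna6, which encodes Kv1.6, was 46.0, 48.8, 46.7, 38.1, 36.8 and 34.4 CPM in libraries 1 to 6 in OPC-like, 32.9, 28.7, 29.2, 28.6, 24.3 and 11.2 CPM in libraries 1 to 6 in immature and 58.1, 53.1, 57.7, 48.7, 49.5 and 26.0 CPM in libraries 1 to 6 in mature nuclei. The immature value was the lowest of the 3 stages in each of the 6 libraries. Summed over libraries, Kcna6 stood at 43.3 CPM (95% interval 39.6 to 47.2, 511 UMIs) in OPC-like, 27.8 CPM (95% interval 24.0 to 32.0, 190 UMIs) in immature and 52.7 CPM (95% interval 48.3 to 57.4, 526 UMIs) in mature nuclei. The immature over OPC-like log2 ratio was -0.64 (95% interval -0.89 to -0.40), a 1.56-fold lower level with 6 of 6 libraries below 0, and mature over immature was 0.92 (95% interval 0.68 to 1.17), with 6 of 6 above. Mature over OPC-like was 0.28 (95% interval 0.11 to 0.46) with 5 of 6 libraries above 0, and library 6, with 74 mature nuclei, gave -0.41, so this pair was not called. Without library 6 the remaining 5 libraries were all above 0, which follows from leaving out the only one below and adds no support.

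Of the other members, Kcnab1 was called lower for immature over OPC-like and Kcnab3, on few UMIs, for mature over OPC-like. Kcna4, which encodes the fast-inactivating Kv1.4, did not pass between any 2 stages: it was 12.2 CPM in OPC-like, 13.8 in immature and 10.4 in mature nuclei, and its library values overlapped. Kcnab1, the beta subunit Kvbeta1 that can confer rapid inactivation, fell from 163 CPM (95% interval 156 to 170.3, 1924 UMIs) in OPC-like to 101 CPM (95% interval 93.4 to 109, 689 UMIs) in immature nuclei, with a log2 ratio of -0.69 (95% interval -0.82 to -0.57) and 6 of 6 libraries below 0. The OPC-like level was not called over the pooled other non-neuronal types (0.10, 95% interval 0.027 to 0.18, 5 of 6 libraries above 0). With nuclei thinned to 2000 UMIs, Kcnab1 was seen in 26.0% of OPC-like, 15.4% of immature, 27.7% of microglia-like and 21.6% of endothelial-like nuclei (unthinned 37.5%, 28.7%, 30.3% and 31.8%). In mature nuclei it was 62.0, 79.1, 95.3, 226, 51.5 and 49.3 CPM in libraries 1 to 6, and library 4 stood apart. Mature over OPC-like was -1.0 (95% interval -1.12 to -0.88) with 5 of 6 libraries below 0. It was called without library 4, the only one above 0, where agreement of the rest is fixed in advance. Library 4 also had the most of the 9 neuronal reference genes in mature nuclei, 2702 CPM against 753 to 1586 in the other libraries, and the part of that RNA in the Kcnab1 values was not tested. In library 4 Kcnab1 was also the highest of the 6 libraries in OPC-like, immature and astrocyte-like nuclei and in the pooled other non-neuronal types. Kcnab1 in mature, immature and OPC-like nuclei was 16.4%, 20.3% and 32.7% of its level in named neurons, against 22.5%, 28.7% and 36.9% for the summed reference genes. Kcnab2 (Kvbeta2) was lowest of all 28 types in immature nuclei at 18.1 CPM (95% interval 15.1 to 21.6, 124 UMIs). This interval overlapped those of mature oligodendrocyte-like (21.6 CPM, 18.8 to 24.7), choroid plexus-like (23.1 CPM, 15.9 to 32.4) and ependymal-like nuclei (26.0 CPM, 20.5 to 32.5). None of the stage ratios of Kcnab2 was called, with 5 of 6 libraries below 0 for immature over OPC-like and 5 of 6 above 0 for mature over immature. Library 5 alone lay on the other side in both. Without it Kcnab2 was called in both, but leaving out the only opposing library makes the rest agree in advance. This adds no support. Kcnab3 gave a mature over OPC-like log2 ratio of -1.12 (95% interval -1.97 to -0.33), on 19 and 49 UMIs, with 6 of 6 libraries below 0.

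Of the 7 members, 2 were called higher and 2 lower for immature over OPC-like, where 10.4% of all genes were called higher and 14.2% lower. In mature over OPC-like 2 were higher and 1 lower, against 12.6% and 26.3% of all genes, and in mature over immature 2 were higher and 0 lower, against 9.21% and 18.6%. The members' median log2 ratios were -0.071, -0.23 and -0.16, and those of all genes -0.060, -0.27 and -0.22, so that the members' medians lay close to those of all genes.

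**Figure D2:**
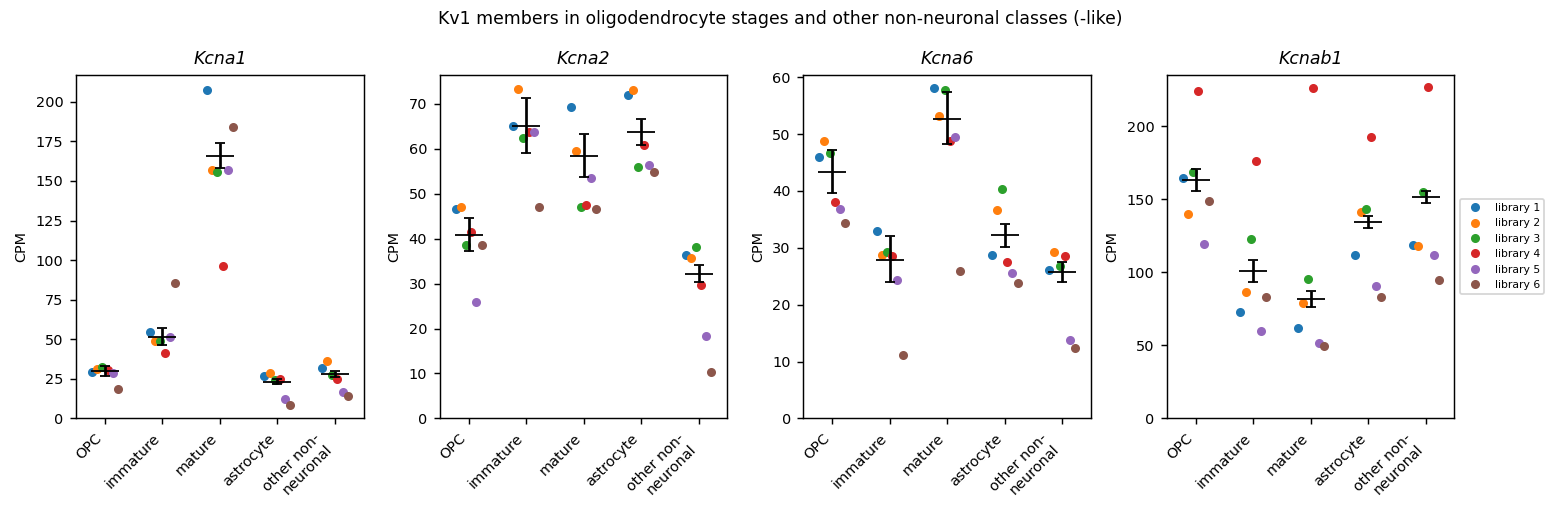
Kcna1, Kcna2, Kcna6 and Kcnab1 in the 3 oligodendrocyte stages, astrocyte-like nuclei and the 7 pooled other non-neuronal types. The y axes are CPM from 0, each coloured point is a library, and the black line and bar are the level over all libraries with its exact 95% Poisson interval. Kcna1 climbs to mature nuclei, Kcna6 is lowest of the 3 stages in immature nuclei in every library, and library 4 is highest for Kcnab1 in all 5 columns.

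Set against the 7 pooled other non-neuronal types, Kcna1 and Kcna2 stood above the level shared by non-neuronal nuclei in both postmitotic stages, and Kcna6 in OPC-like and mature nuclei. Pooled types held 14.3 to 36.3 CPM with a median of 26.2 of Kcna1, 10.3 to 38.2 CPM with a median of 32.8 of Kcna2 and 12.3 to 29.3 CPM with a median of 26.5 of Kcna6 over the 6 libraries. For Kcna1 the log2 ratio over the pooled types was 2.58 (95% interval 2.46 to 2.7) in mature, 0.89 (95% interval 0.71 to 1.07) in immature and 0.091 (95% interval -0.091 to 0.27) in OPC-like nuclei, the last with 4 of 6 libraries above 0 and not called. For Kcna6 it was 0.75 (95% interval 0.59 to 0.91) in OPC-like, 0.11 (95% interval -0.13 to 0.34) in immature and 1.03 (95% interval 0.87 to 1.19) in mature nuclei, the first and last with 6 of 6 libraries above 0. For Kcna2 it was 1.01 (95% interval 0.85 to 1.18) in immature, 0.98 (95% interval 0.87 to 1.09) in astrocyte-like, 0.86 (95% interval 0.71 to 1.01) in mature and 0.34 (95% interval 0.18 to 0.49) in OPC-like nuclei, all with 6 of 6 above 0. The OPC-like call for Kcna2 was not matched by the share of nuclei with a UMI after thinning to 2000 UMIs per nucleus, which was 7.57% in OPC-like, 7.57% in microglia-like and 5.53% in endothelial-like nuclei, against 11.2% in immature, 10.7% in mature and 11.4% in astrocyte-like nuclei (unthinned 12.9%, 7.97%, 9.83%, 20.8%, 23.1% and 19.8%). Kcnab1 lay below the pooled types in immature (-0.59) and mature nuclei (-0.89), and Kcnab2 in immature nuclei (-0.72), with 6 of 6 libraries each. The 9 neuronal reference genes had median log2 ratios of -0.52 in immature and -0.83 in mature nuclei, with 8 and 6 of 9 called lower. Medians of all genes were -0.35 and -0.57. The part of neuronal RNA in the Kcnab1 and Kcnab2 values was not tested. Called higher and lower were 2 and 0 members in OPC-like nuclei (all genes 12.2% and 42.5%), 2 and 2 in immature (10.6% and 39.7%), 3 and 1 in mature (10.1% and 49.0%) and 1 and 0 in astrocyte-like nuclei (14.4% and 41.0%). In mature nuclei 3 of 7 members were higher, where about 1 gene in 10 was. These calls depend on scaling: TMM factors, which centre the types on genes that change little, raise the ratios by 0.28 in OPC-like, 0.29 in immature, 0.49 in mature and 0.24 in astrocyte-like nuclei, for every gene alike. With them Kcna1 in OPC-like nuclei (0.37) and Kcna6 in immature nuclei (0.40) were called higher, as were Kcnab1 (0.38) and Kcnab3 (0.83) in OPC-like and Kcna6 in astrocyte-like nuclei (0.56), and Kcnab1 was no longer called lower in immature (-0.30) or mature nuclei (-0.41). The shares of all genes called with these factors were not computed, so the added calls are not read as a result about the members.

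Shares of nuclei with a UMI, taken after each nucleus was thinned to 2000 UMIs because types differ in depth, also put mature oligodendrocyte-like nuclei first for Kcna1 among the types where shares were taken. Dentate granule-, CA pyramidal-, layer 5- and Sst interneuron-like nuclei were not among these. Kcna1 was seen in 26.1% of mature oligodendrocyte-like nuclei, 14.5% of Pvalb interneuron-like, 11.4% of layer 6 corticothalamic-like, 9.12% of thalamic-like, 8.45% of indirect-pathway striatal-like, 7.74% of immature and 5.9% of OPC-like nuclei. Thalamic-like and indirect-pathway nuclei stood above immature nuclei here and below them in CPM, with overlapping intervals of the shares. Microglia-like and endothelial-like nuclei, taken as types that should lack Kv1.1, showed 6.24% (95% interval 5.16 to 7.46) and 4.87% (95% interval 4.06 to 5.77). The OPC-like share lay between these and is not read as expression, and the interval of the immature share (6.46 to 9.18) overlapped that of microglia-like nuclei. Free RNA itself was not measured. Unthinned, Kcna1 was in 45.1% of mature nuclei at a median of 4708 UMIs per nucleus and 47.2% of Pvalb interneuron-like nuclei at 7838, and up to 11 UMIs were counted in a mature nucleus. Thinned shares of Kcna6 were 8.55% in OPC-like, 5.61% in immature, 10.3% in mature, 4.62% in microglia-like and 6.16% in endothelial-like nuclei (unthinned 13.4%, 9.84%, 21.7%, 6.09% and 10.5%), so the immature share lay between those of the last 2 types. Nuclei under 2000 UMIs were left out, 439, 116, 139, 963 and 381 of these types.

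Among neurons, Kcna4 and Kcnab1 were highest in striatal projection types, Kcna1 and Kcnab3 in Pvalb interneuron-like nuclei, and Kcnab2 in CA pyramidal-like and dentate granule-like nuclei. Kcnab1 was the most sharply graded member across neuronal types. It reached 1455 CPM (95% interval 1435 to 1475, 20239 UMIs) in indirect-pathway and 1414 CPM (95% interval 1397 to 1431, 27210 UMIs) in direct-pathway striatal-like nuclei, the output neurons of the striatum that carry dopamine receptors of the D2 and D1 class. By library the values were 1369, 1631, 1403, 1362, 1480.2 and 1456 CPM in libraries 1 to 6 and 1420.4, 1552, 1346, 1280.5, 1456 and 1454 CPM in libraries 1 to 6. No library of either type came near the neuronal types outside the striatum, of which Pvalb interneuron-like nuclei were the highest at 635 to 725 CPM, and upper-layer cortical-like nuclei were lowest at 52.7 to 116 CPM. For ratios, the excitatory class pooled 11657 nuclei of the upper-layer, Rorb layer 4-, layer 5-, layer 6 corticothalamic-, CA pyramidal- and other excitatory-like types, and thalamic-like and dentate granule-like nuclei, which were named apart, were not in it. All striatal projection types over this class gave a log2 ratio of 2.79 (95% interval 2.77 to 2.81), a 6.93-fold difference, and direct over indirect gave -0.041 (95% interval -0.067 to -0.014) with 1 of 6 libraries above 0. After thinning, 87.4% of direct-pathway and 88.1% of indirect-pathway striatal-like nuclei held a Kcnab1 UMI, against 62.3% of Pvalb interneuron-like, 27.7% of microglia-like and 13.3% of upper-layer cortical-like nuclei (unthinned 97.3%, 97.4%, 88.6%, 30.3% and 37.6%). The share in upper-layer cortical-like nuclei was below that of microglia-like nuclei when thinned and above it when not, and 14.2% of upper-layer nuclei held 2 or more Kcnab1 UMIs.

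Kcna4 shared the striatal peak. It was 58.2, 62.9, 49.9, 42.6, 66.2 and 70.4 CPM in libraries 1 to 6 in direct-pathway and 46.1, 52.7, 55.9, 51.5, 64.5 and 69.9 CPM in libraries 1 to 6 in indirect-pathway striatal-like nuclei, and neither was higher in all libraries, with a log2 ratio of 0.034 (95% interval -0.100 to 0.17). Thalamic-like nuclei followed at 48.3 CPM (95% interval 44.8 to 52.0, 701 UMIs), whose interval overlapped that of the indirect-pathway type, and dentate granule-like nuclei at 31.4 CPM were clearly lower, in 6 of 6 libraries. Over the excitatory class, which holds neither of these, the striatal types gave a log2 ratio of 1.59 (95% interval 1.5 to 1.68) with 6 of 6 libraries above 0. Kcna4 was lowest in Pvalb interneuron-like nuclei at 7.6 CPM (95% interval 6.01 to 9.48, 78 UMIs), and interneuron over excitatory was -0.83 (95% interval -1.04 to -0.64) with 6 of 6 libraries below 0. This lowest level overlapped those of layer 5-like (8.77 CPM) and Sst interneuron-like nuclei (9.63 CPM), and layer 5-like nuclei lay above it in 4 of 6 libraries.

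Pvalb interneuron-like nuclei led the neurons in Kcna1 and in Kcnab3 and were among the highest in Kcna6. Kcnab3, the least counted beta subunit, was 15, 23.1, 22.9, 29.0, 18.2 and 20.5 CPM in libraries 1 to 6 in them, highest of the 28 types in 5 of 6 libraries. Rorb layer 4-like nuclei, the input layer of sensory cortex, followed at 11.8 CPM (95% interval 10.1 to 13.7, 173 UMIs), below in 6 of 6 libraries. In most other types Kcnab3 stood between 1.68 and 8.45 CPM on few UMIs. Lhx6 interneurons (the Pvalb and Sst types together) over caudal-origin interneurons gave log2 ratios of 1.31 (95% interval 1.05 to 1.57) for Kcna1, 1.30 (95% interval 0.76 to 1.89) for Kcnab3, 0.72 (95% interval 0.65 to 0.79) for Kcnab1, 0.69 (95% interval 0.39 to 0.99) for Kcna2 and 0.57 (95% interval 0.34 to 0.81) for Kcna6, each with 6 of 6 libraries above 0, and -1.11 (95% interval -1.51 to -0.71) for Kcna4 with 6 of 6 below. Kcnab2 was 0.23 (95% interval 0.032 to 0.44) with 5 of 6 above and was not called. The pooled ratios of Kcna1 and Kcnab3 hide a difference between the Lhx6 types. Kcna1 was 36.3 CPM (95% interval 31.8 to 41.3) in Sst interneuron-like nuclei, below the 91.8 CPM of Pvalb and nearer to the 28.4 CPM (95% interval 23.9 to 33.6) of caudal-origin interneuron-like nuclei. Kcnab3 was 21.7 CPM in Pvalb, 6.21 CPM (95% interval 4.44 to 8.46) in Sst and 6.39 CPM (95% interval 4.34 to 9.07) in caudal-origin interneuron-like nuclei, so that it was higher in the Pvalb type and not in the Sst type. Together, these 5 higher and 1 lower of 7 members compare with 10.8% and 8.13% of all genes, and the members' median log2 ratio was 0.69 against 0.013 for all genes.

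Kcna6 had no single leading type. Layer 6 corticothalamic-like nuclei, the cortical cells that project to the thalamus, were at 58.6 CPM (95% interval 55.6 to 61.8, 1387 UMIs), Pvalb interneuron-like at 56.7 CPM (95% interval 52.2 to 61.5, 582 UMIs), Sst interneuron-like at 55.0 CPM (95% interval 49.4 to 61.0, 354 UMIs) and mature oligodendrocyte-like at 52.7 CPM. Neighbours among these 4 had overlapping intervals. Mature oligodendrocyte-like nuclei did not overlap the next type, thalamic-like at 43.9 CPM, but lay above it in only 4 of 6 libraries. The order of the 4 changed from library to library: layer 6 corticothalamic-like nuclei ran from 43.6 to 64.5 CPM and Pvalb interneuron-like from 46.8 to 65.0 CPM. Indirect-pathway striatal-like nuclei were lowest at 11.1 CPM (95% interval 9.45 to 13, 155 UMIs), next to upper-layer cortical-like at 12.6 CPM. Interneuron over excitatory was 0.80 (95% interval 0.70 to 0.90) with 6 of 6 libraries above 0 and striatal over excitatory -1.06 (95% interval -1.19 to -0.92) with 6 of 6 below. The excitatory types were not alike, so these class ratios do not hold for each of them. Layer 6 corticothalamic-like nuclei were not below any interneuron type. Upper-layer (12.6 CPM) and CA pyramidal-like nuclei (14.3 CPM) were not above the pooled striatal types (14.4 CPM). Direct over indirect was 0.45 (95% interval 0.17 to 0.74), with 5 of 6 above, so its lean towards the direct pathway was not called.

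Kcnab2 was highest in CA pyramidal-like nuclei of the hippocampus, 110.1, 120.0, 128, 129.7, 117 and 104 CPM in libraries 1 to 6, and then in dentate granule-like nuclei, 96.6, 80.1, 87.1, 97.9, 88.5 and 83.6 CPM in libraries 1 to 6. Both summed levels were above those of every cortical type, of which Pvalb interneuron-like (67.2 CPM), layer 5-like (66.9 CPM) and upper-layer-like (65.4 CPM) did not differ beyond their intervals. Kcnab2 was lower in interneurons (-0.29 (95% interval -0.37 to -0.20)) and in striatal neurons (-0.52 (95% interval -0.60 to -0.45)) than in the excitatory class, with 6 of 6 libraries below 0 in both. That class (70.0 CPM) includes CA pyramidal-like nuclei, and its other types were at 59.9 to 66.9 CPM. Pvalb interneuron-like nuclei were not below these, whereas Sst (46.9 CPM) and caudal-origin interneuron-like nuclei (50.5 CPM) were. Kcnab1 went the other way in both class ratios, at 1.41 (95% interval 1.38 to 1.45) and the striatal value above, so that the 2 main beta subunits took opposite directions between these pooled classes. This did not hold type by type: over the 28 types Pearson's r of their log2(CPM + 1) was 0.49. CA pyramidal-like nuclei, highest in Kcnab2, held 433 CPM of Kcnab1.

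All 7 members were called between interneurons and excitatory neurons, 5 higher (Kcnab3 1.82, Kcnab1 1.41, Kcna6 0.80, Kcna1 0.66 and Kcna2 0.58) and 2 lower, where 31.2% of all genes were higher and 16.8% lower. With TMM factors Kcna2 (0.42) lost its call here. The interneuron types were not alike in Kcna1. It was 91.8 CPM in Pvalb, 36.3 CPM in Sst and 28.4 CPM in caudal-origin interneuron-like nuclei, against 38.7 CPM in the excitatory class. Only the Pvalb type was therefore higher than that class. Kcna2 was 22.7 CPM in caudal-origin interneuron-like nuclei and 22.3 CPM in the excitatory class. Between striatal and excitatory neurons 2 were higher and 3 lower (Kcnab3 the third, at -0.82), against 28.8% and 23.0%, while Kcna1 (0.27) and Kcna2 (0.15) had 5 of 6 libraries above 0. Between direct- and indirect-pathway nuclei 0 were higher and 0 lower, against 4.64% and 3.96% of all genes, by the interval and library rule. The intervals alone left out 0 for Kcna6, Kcna2 and Kcnab1, and these 3 lacked agreement between libraries.

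**Figure D3:**
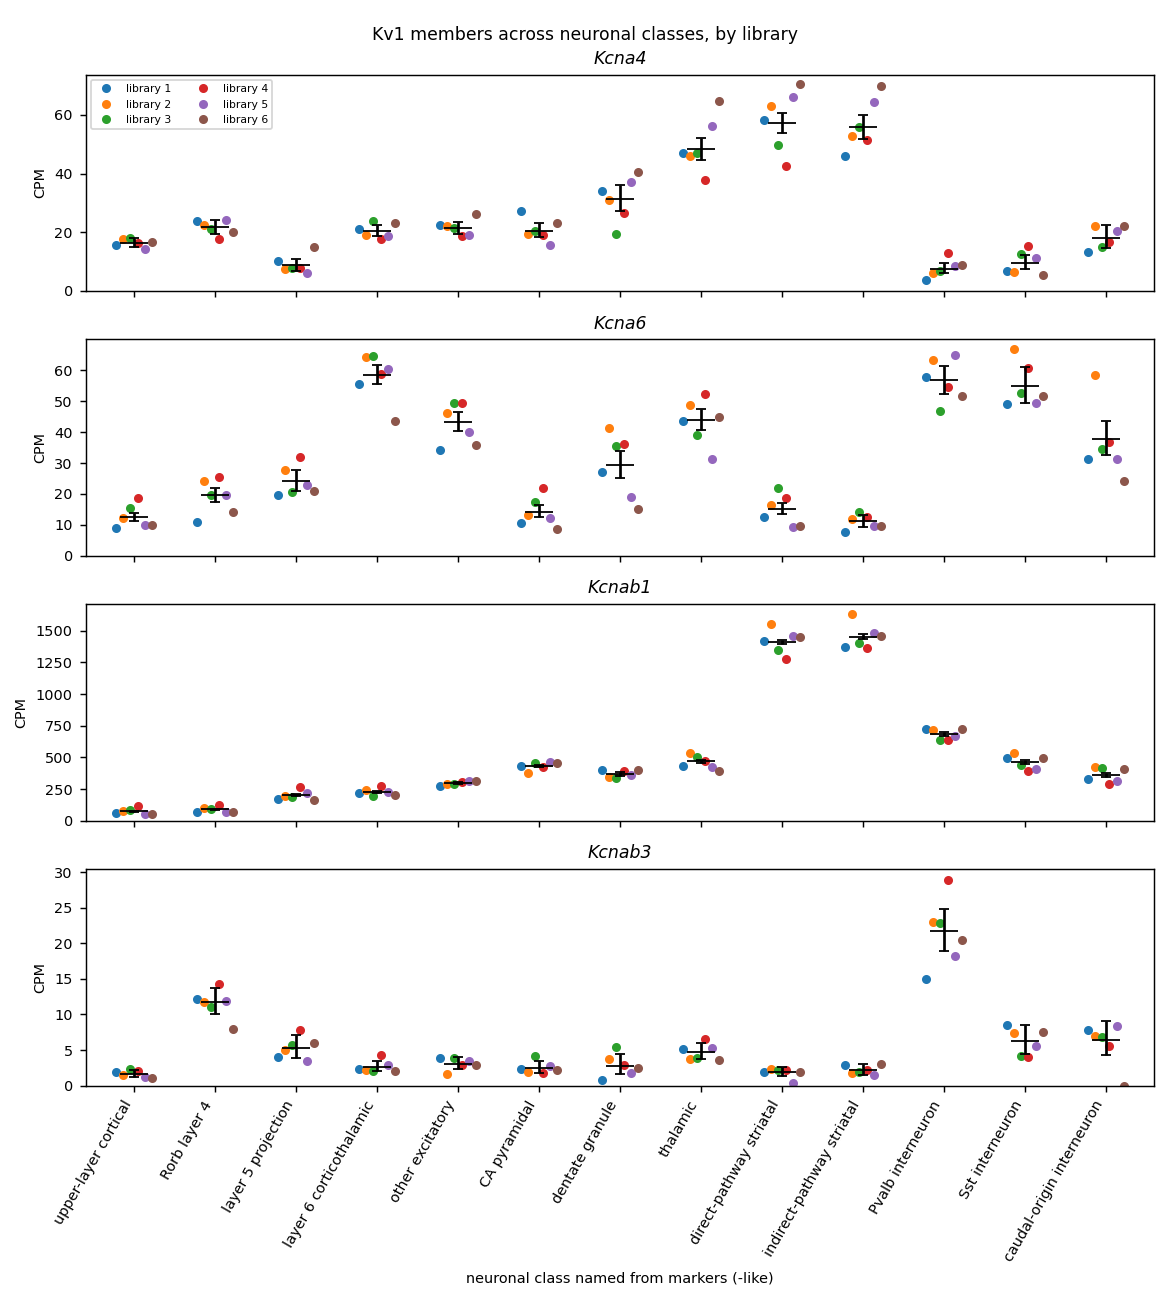
Kcna4, Kcna6, Kcnab1 and Kcnab3 in the 13 neuronal types with at least 20 nuclei in every library. The y axes are CPM from 0, points are libraries and black bars are the level over all libraries with its exact 95% Poisson interval. Kcnab1 is at 1280.5 CPM or more in every library of both striatal types, Kcna4 is highest in the same types, and Kcnab3 is highest in Pvalb interneuron-like nuclei.

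**Figure D4:**
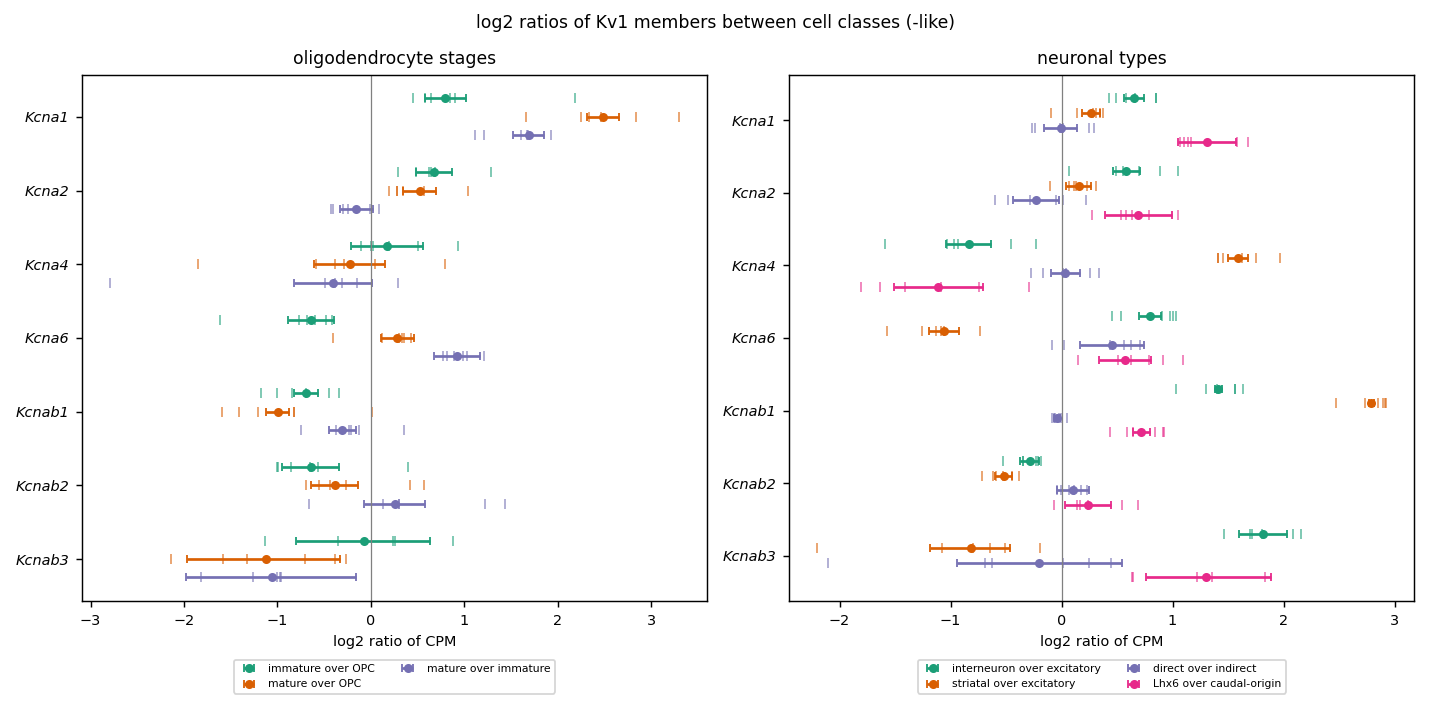
Log2 ratios of CPM between oligodendrocyte stages (left) and between neuronal types (right) for the 7 members. Dots and bars are the ratio over all libraries with its exact 95% interval, and short vertical ticks are single libraries. Kcna1 lies above 0 in all libraries for the 3 stage ratios, and Kcna6 below 0 for immature over OPC-like and above 0 for mature over immature. No member was called for direct over indirect, where the dot of Kcna6 lies farthest from 0, at 0.45.

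Kcna5 and Kcna3 were rare. Kcna5, best known from the heart and vascular muscle, was highest in endothelial-like nuclei at 3.96 CPM (95% interval 2.86 to 5.36, 42 UMIs) and pericyte or smooth muscle-like nuclei at 3.26 CPM (95% interval 1.2 to 7.1, 6 UMIs), and the 2 intervals overlapped. Endothelial-like values were 5.99, 2.03, 1.91, 3.46, 11.2 and 13.3 CPM in libraries 1 to 6, from 5 to 12 UMIs per library. Among neurons Kcna5 was 1.83 CPM (95% interval 1.41 to 2.34, 65 UMIs) in striatal projection types and 0.511 CPM (95% interval 0.386 to 0.664, 56 UMIs) in the excitatory class, with 6 of 6 libraries higher in the former and a log2 ratio of 1.84 (95% interval 1.30 to 2.38). Kcna3, the Kv1.3 channel known from lymphocytes and microglia, gave at most 7 UMIs in any named type and 1 in 2759 microglia-like nuclei (0.137 CPM, upper limit 0.762), so its values in single types rest on very few UMIs and are not ranked. Over pooled classes it was 0.557 CPM in interneurons and 0.173 CPM in excitatory neurons, on 12 and 19 UMIs, with a log2 ratio of 1.68 (95% interval 0.51 to 2.80) and 5 of 6 libraries above 0. Its whole locus also lies inside the antisense gene Gm27008, which gave 8155 UMIs.

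Proteins that bind or cluster Kv1 channels were read beside the members. Of 12 partner genes, 3 were higher and 6 lower for mature over OPC-like, against 12.6% and 26.3% of all genes, with a median log2 ratio of -0.13 against -0.27 for all genes. The largest was Lgi3, a secreted ligand of the ADAM22 family of receptors, at 66.6 to 130.4 CPM with a median of 119 over libraries in mature and 3.13 to 16.9 CPM with a median of 12.5 in OPC-like nuclei, a log2 ratio of 3.17 (95% interval 2.93 to 3.43). Lgi3 had already risen in immature nuclei (2.48 (95% interval 2.22 to 2.76)). Cntn2, which holds Kv1 channels at the juxtaparanode, differed from Lgi3 in timing: it was 3.13 to 9.9 CPM at the progenitor stage, 2.24 to 12.9 CPM in the immature stage and 18.2 to 45 CPM in mature nuclei, with a log2 ratio of -0.10 (95% interval -0.64 to 0.42) for immature over OPC-like and 2.30 (95% interval 1.86 to 2.77) for mature over immature. Kcna1 had called steps at both transitions. The smallest was Lgi1, an epilepsy gene, at -1.23 (95% interval -1.42 to -1.05), and Cntnap2, the partner of Cntn2, was likewise lower for mature over OPC-like at -0.83, named here after its value was seen. The 9 neuronal reference genes ran from -1.09 to -0.45 for mature over OPC-like. The part of neuronal RNA in the Lgi1 and Cntnap2 values was not tested. In immature over OPC-like 4 partners were higher and 6 lower (Lgi2 lowest, -0.69), against 10.4% and 14.2% of all genes, with a median of -0.18 against -0.060. In mature over immature they were 3 and 3 (Adam11 lowest, -1.22), against 9.21% and 18.6%, with a median of -0.20 against -0.22. Among neurons, Lgi2 was the partner with the largest ratio in interneurons (1.68, Dlg1 smallest at -1.39) and in striatal neurons (1.29, Adam11 smallest at -1.12), both over excitatory neurons, with 5 of 12 higher and 6 lower in the first (all genes 31.2% and 16.8%) and 4 and 6 in the second (28.8% and 23.0%). In Lhx6 over caudal-origin interneurons 4 were higher (Lgi3 1.16) and 1 lower (Lgi1 -0.79), against 10.8% and 8.13% of all genes.

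Most of the other voltage-gated potassium channel pore genes went down along the lineage, where Kcna1 went up. Of the 12 of 14 that passed the minimum, 2 were higher and 9 lower for immature over OPC-like, and 1 and 9 for mature over OPC-like, with median log2 ratios of -0.72 and -1.38. Of all genes, 10.4% and 12.6% were higher and 14.2% and 26.3% lower, with medians of -0.060 and -0.27, and the 9 neuronal reference genes, with medians of -0.28 and -0.54, also had 4 of 9 called lower in each. Their part in the pore gene values was not tested. Kcnd3, a pore of A-type currents, fell most, from 327 to 371 CPM in OPC-like to 14.7 to 80.8 CPM in mature nuclei over libraries (-3.36 (95% interval -3.53 to -3.20)), and the M-current gene Kcnq3 had the largest ratio at 0.23 (95% interval 0.18 to 0.28). Kcnd2 was the smallest in immature over OPC-like nuclei at -1.81. The inward rectifier Kcnj10 (Kir4.1), which buffers potassium in glia, was higher for mature over OPC-like at 0.52 (95% interval 0.36 to 0.68), and Kcnj16 lower at -2.74. In interneurons over excitatory neurons 3 of the 12 pore genes were higher, led by Kcnc2 (Kv3.2) at 3.75, and 7 lower (all genes 31.2% and 16.8%). In striatal over excitatory neurons 3 were higher (Kcnd2 0.92) and 6 lower (Kcnc4 -1.85), against 28.8% and 23.0%, and in Lhx6 over caudal-origin interneurons 4 were higher (Kcnc2 1.76) and 3 lower (Kcnq5 -1.81), against 10.8% and 8.13%.

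Over the 28 types, likeness to a member was measured by Pearson's r of log2(CPM + 1) over 16146 genes, as a description, since types share libraries and differ in depth. Kcnab1 was most like A330015K06Rik (0.98) and A730090N16Rik (0.94), and Kcna6 most like Gm26673 (0.89). All 3 are annotated on the opposite strand within or across the member itself: Gm26673 covers 68.0% of Kcna6 and A330015K06Rik 63.1% of Kcnab1. They gave 38178, 2991 and 3710 UMIs, and the sources used here do not say whether the counting used strand. Reads of these pairs may therefore not have been told apart, and their likeness is uncertain as a finding. The levels and ratios of Kcna6 and Kcnab1 given above carry the same limit. Nphp4 covers 1.34% of Kcnab2 and Kcnab3os 33.9% of Kcnab3, also on the opposite strand. Outside such overlaps, Kcna1 was most like Slc24a2 (0.76), Gm16596 (0.73) and Nkain2 (0.72), Kcna2 like Col11a2 (0.78), Sirt2 (0.74) and Aco1 (0.73), and Kcna4 like Arg2 (0.88), Acvr1c (0.83) and Gm3510 (0.79). Kcna6 was next like E230016M11Rik (0.77) and A430010J10Rik (0.72), Kcnab1 like Smg5 (0.87), Kcnab2 like Tenm2 (0.93), Grin2b (0.92) and Grin2a (0.92), and Kcnab3 like Las1l (0.72), Rufy3 (0.71) and Myo19 (0.67). These lists depend on the measure. By Spearman's rank correlation, Kcna2 and Kcnab2 kept 0 of their 3 genes, Kcna1 and Kcnab3 kept 1, and Kcna4, Kcna6 and Kcnab1 kept 2. With log2(CPM + 10), Kcnab3 kept 1 of 3 and each other member 2 or 3. Between members with 500 or more UMIs, r was highest for Kcna4 and Kcnab1 (0.59), the striatal pair, and lowest for Kcna2 and Kcnab2 (-0.52), of which the former was highest in glia and the latter in hippocampal neurons.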

How the data were processed

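The deposited data are raw UMI counts, whole numbers for each gene in each barcode, which the authors joined for 6 libraries into 1 matrix with no normalization. Its header names Cell Ranger 6.0.0, the submitters' processing notes name Cell Ranger 2.1.1 and mm10, and the study's methods describe STARsolo with GRCm38, so the origin of the matrix is not settled. The sources used here do not state the strand and intron settings. No file ties barcode suffixes to mice, so genotype was not tested and libraries were not treated as replicates.

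Barcodes at or above a mitochondrial share of 10% (11) and the 10% of highest doublet score per library (7422 in all, from simulated doublets) were left out. Counts were log-normalized, and 3000 variable genes without the members and the channel and partner lists gave 30 principal components, 20 neighbours and Leiden clusters at resolution 1.0 (leidenalg 0.10.2). Of the result, 37827 neuronal nuclei were clustered a second time. Clusters were named from marker lists, where at least 3 markers had to be detected in 5% of nuclei and at 1.5 times the median cluster. The second round and these limits were chosen after seeing the data, as was the pooling of 7 other non-neuronal types.

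UMIs were summed per type and scaled to CPM, with exact Poisson intervals and exact conditional binomial intervals for ratios, at 95%. UMIs of a library are not a sample of mice, so intervals cover counting error only. Genes with at least 500 UMIs entered comparisons. The 9 members were always named, plus the 3 genes most like each member and the largest and smallest ratio of each list, apart from 1 list gene that is not reported here. Members and lists were chosen with earlier results of these data known. Nuclei were thinned to 2000 UMIs for shares. Python 3.11.15, numpy 2.4.6, scipy 1.17.1 and pandas 2.3.3 were used, and edgeR 4.0.16 in R 4.3.3 for TMM factors. The scripts were tested on simulated data. Alternatives were other filters, resolutions, scalings, weights and leaving out each library. RefSeq promoters of GRCm38.p6 were matched by symbol for 7 of 9 members, without Kcna1 and Kcnab3.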

Additional observations from a re-analysis of the deposited data

Results flagged for a closer look

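Among 89 levels of members with at least 20 UMIs in every library, 4 had a library far from the other 5 (Dixon's rule, which chance alone triggers in about 1 of 20 groups). Kcna1 in immature oligodendrocyte-like nuclei was 85.2 CPM in library 6 and 41.5 to 54.4 CPM in the others. Kcna2 in layer 5 projection-like nuclei was 47.8 CPM in library 2 and 24.4 to 30.8 CPM in the others. Kcna4 over all kept nuclei was 26.4 CPM in library 6 and 20.7 to 22.1 CPM in the others. Kcnab2 in Rorb layer 4-like nuclei was 68.0 CPM in library 3 and 55.0 to 59.3 CPM in the others. The genotype of these libraries is not known here, and the causes were not tested.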

How the results depend on the processing

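Of the values under alternatives for the main results, 199 stayed in place, 23 moved and 0 reversed. Of the others 1080 stayed, 141 moved and 0 reversed. Ratios and levels stayed in place when inside the main interval, and counts when they changed by at most 1.5-fold. Only called ratios could be labelled reversed, so the 0 says nothing of counts, levels and ratios that were not called. The Kcna1 log2 ratio of mature over OPC-like was 1.97 without the doublet filter and 2.69 with TMM factors, which shifted all genes of that comparison by 0.21. The Kcnab1 log2 ratio of striatal over excitatory neurons was 2.74 without the doublet filter, 2.59 at resolution 0.5, 2.92 at 2.0, 2.60 with the member genes in the clustering, 2.73 with TMM factors, 2.74 with nuclei weighted equally, 2.88 as the median over libraries, and 2.76 to 2.86 leaving out single libraries. Members lower for mature over OPC-like numbered 1 to 2 leaving out single libraries (2 without library 4). Members lower in mature than in immature nuclei numbered 1 without the doublet filter and 0 to 1 leaving out single libraries (1 without library 1, 4 or 6). Between direct- and indirect-pathway nuclei 1 member was higher at resolution 0.5 and 0 to 1 leaving out single libraries (1 without library 5), and 1 was lower without the doublet filter, at resolution 0.5, with the member genes in the clustering, and 0 to 1 leaving out single libraries (1 without library 1). Without library 5, 3 members were lower in immature over OPC-like, 3 higher in mature over immature, 3 higher in striatal over excitatory (also without library 6) and 6 higher in Lhx6 over caudal-origin neurons, and without library 6, 3 were higher in mature over OPC-like. Against the pooled non-neuronal types, leaving out single libraries gave 2 to 3 members higher and 0 to 1 lower in OPC-like nuclei (1 lower without library 3), 1 to 2 lower in mature nuclei (2 without library 4), and 1 to 2 higher (2 without library 4 or 6) and 0 to 1 lower (1 without library 1, 2, 3 or 4) in astrocyte-like nuclei. The causes were not tested. With a library left out, a call needs only the remaining libraries to agree. The shares of all genes called under the alternatives were not computed, so these counts are not read as a result about the members. At resolution 0.5 Lhx6 and caudal-origin interneurons were not separate, and the small striatal group gave no value there or without the doublet filter. Leaving out clusters deeper than 1.5 times the common depth was planned for the 3 oligodendrocyte stages and removed 0 of their clusters, so it gave no value, and it was not run on neurons. No paired analysis was possible because the columns carry no link from a library to a replicate number, while ratios between types were also taken within each library.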

Other observations

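Nuclei in unnamed clusters held 23.9% to 37.9% of the UMIs of a member. Among these clusters Kcna6 was highest, at 84.3 CPM, in a cluster of 440 neuronal nuclei led by Lcp1, Tshz2 and Dkk2, above the 58.6 CPM of layer 6 corticothalamic-like nuclei. Kcnab1 was highest, at 588 CPM, in a cluster of 605 neuronal nuclei led by B020031H02Rik, Gm45680 and Chst9, and Kcnab3, at 14.4 CPM, in a cluster of 363 neuronal nuclei led by Drd3, Gpr149 and Gm12068. Kcna1 and Kcna2 were highest, at 71.0 and 78.8 CPM, in a cluster of 1797 nuclei led by Mbp and mitochondrial genes, of which 34 came from library 4.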
